A study of Mus musculus with 20 samples.

Results

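The Cyp2b cytochrome P450 genes Cyp2b9, Cyp2b10 and Cyp2b13, their receptors CAR (Nr1i3) and PXR (Nr1i2), and the P450 reductase gene Por were followed in mouse liver. A probe set was taken where the platform annotation gives it a single gene symbol and that symbol is one of these 6 genes. This gave 8 probe sets for 5 genes, of 17097 genes measured: 3 for Cyp2b10, 2 for Nr1i2 and 1 each for Cyp2b9, Cyp2b13 and Nr1i3. The annotation used here gives Por no probe set, so Por was not analysed here. A gene with several probe sets is represented by the one with the highest mean over all arrays.

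The livers came from 20 mice aged 11 weeks, with 5 mice in each of 4 groups and 1 array per mouse. The groups were restricted progeroid (Ercc1Δ/-, restricted food), control progeroid (Ercc1Δ/-, control diet), restricted wild type and control wild type. Ercc1Δ/- mice, which lack normal function of an endonuclease subunit of nucleotide excision and crosslink repair, came from crossing Ercc1Δ/+ with Ercc1+/- parents, and the wild type mice were their littermates; all were F1 hybrids of C57BL6J and FVB on AIN93G pellets. Both Ercc1 alleles were inherited from the parents and are not specific to liver. Restriction started at 7 weeks of age with 10% less food and reached 30% at 9 weeks. The control groups were freely fed. The labels give 3.0 g of food per day for control and 2.1 g for restricted wild type mice. Food was given just before the dark period. The hour at which livers were taken is not in the sources used here. Any difference in meal timing between the diets cannot be told apart from the amount of food.

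CAR and PXR are nuclear receptors that sense drugs, bile acids and other compounds, pair with RXR and switch on genes of drug metabolism. In the mouse, Cyp2b10 is the classical target gene of CAR and responds to phenobarbital, while Cyp2b9 and Cyp2b13 are known for much higher levels in female than in male liver, a difference that depends on the pattern of growth hormone release. Cytochrome P450 enzymes of the endoplasmic reticulum take their electrons from the reductase encoded by Por.

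The 3 Cyp2b genes lie next to each other on chromosome 7, on the plus strand of assembly GRCm38.p6. Cyp2b10 spans chr7:25897658-25926624, Cyp2b13 chr7:26061388-26096197 and Cyp2b9 chr7:26173350-26210661. The gaps are 134763 and 77152 bases, and the RefSeq annotation places 0 protein-coding genes in either. Nr1i3 lies at chr1:171213934-171218845 and Nr1i2 at chr16:38248349-38294849. The upstream sequences of the 3 Cyp2b genes are shown because these neighbours were all lower in progeroid livers on restricted food, and because those of Cyp2b9 and Cyp2b13 are almost the same. Each run holds the bases from -250 to -111 relative to the RefSeq transcript start, 5′ to 3′ on the plus strand. They are from RefSeq, GRCm38.p6, at chr7:26173159-26173298 for Cyp2b9, chr7:26061245-26061384 for Cyp2b13 and chr7:25897408-25897547 for Cyp2b10. Capitals mark the bases at which Cyp2b9 and Cyp2b13 differ.
Cyp2b9: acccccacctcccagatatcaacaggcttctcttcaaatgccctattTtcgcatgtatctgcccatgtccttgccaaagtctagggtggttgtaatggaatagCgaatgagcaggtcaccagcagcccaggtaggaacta
Cyp2b13: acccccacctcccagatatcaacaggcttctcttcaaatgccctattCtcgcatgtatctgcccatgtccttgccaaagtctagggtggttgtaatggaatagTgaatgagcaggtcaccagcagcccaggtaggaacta
Cyp2b10: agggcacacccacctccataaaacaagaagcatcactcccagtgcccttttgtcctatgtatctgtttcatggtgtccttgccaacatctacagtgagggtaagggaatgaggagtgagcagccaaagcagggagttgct

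Of the 250 bases before the transcript start used here, the last 59 of Cyp2b9, 107 of Cyp2b13, 36 of Nr1i3 and 25 of Nr1i2 lie inside the gene spans that RefSeq annotates, and 0 of Cyp2b10; the printed runs lie outside the spans. Over these 250 bases Cyp2b9 and Cyp2b13 were 99.2% identical. They differed by the substitutions C48T and T104C, with the Cyp2b13 base first, the Cyp2b9 base last and positions counted from the 5′ end of the window. Against Cyp2b10 each was identical in 182 of 260 aligned columns (70.0%), with 58 mismatches and 20 gap columns. A single AGGTCA motif, the hexamer that nuclear receptors bind, lay at -138 to -133 in both Cyp2b9 and Cyp2b13, outside both differing positions. The windows of Cyp2b10, Nr1i3 and Nr1i2 do not hold this hexamer. Sequence further upstream was not searched, and receptor binding was not tested. On either strand this motif occurs in 14.0% of 32851 RefSeq windows of the same length. The window of Nr1i3 holds an E-box, CACGTG, at -244 to -239, which 6.02% of windows hold. The letters of a STAT motif (TTCNNNGAA, 7.02% of windows), a D-box (TTANGTAA, 2.06%) and a TATA box (TATAAA, 12.4%) are not in the windows of the 5 genes, on either strand. No matches overlapped each other. These are reference sequences, and the FVB copy of each gene was not read.

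Ercc1 followed the labels. It averaged 4.80 in restricted progeroid and 5.30 in control progeroid livers, against 6.15 in restricted wild type and 6.54 in control wild type livers (log2 level). The fold change was -1.35 ± 0.098 (SE) on restricted food and -1.24 ± 0.098 on the control diet (log2). All values here are log2 levels after RMA normalisation, which have no zero point and understate folds near the lower end of the scale. Hepatocyte markers averaged 13.83 to 13.93 in every animal, and 0 of 7 passed the test in any comparison. They lie near the top of the scale, where the highest value was 14.51, so a change in hepatocyte content may not show in them. The labels give no sex. The Y-linked gene Eif2s3y lay between 9.57 and 10.19 in all 20 arrays and Xist between 3.82 and 4.50. Every liver thus had Y-linked expression, as male livers do. In bulk liver, fewer cells of a type and less RNA per cell cannot be told apart.

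Restriction raised Cyp2b9 in both genotypes and Cyp2b13 in wild type livers, and on restricted food all 3 Cyp2b genes were lower in progeroid than in wild type livers. Cyp2b10 was low in all progeroid livers. The receptors moved by 2.0-fold or less. Nr1i3 rose with restriction in both genotypes and Nr1i2 in progeroid livers. The test throughout is limma's moderated test over all 20 arrays, with Benjamini-Hochberg adjustment over the 17097 genes of a comparison; a gene is called where its adjusted p is under 0.05.

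Cyp2b9 had log2 levels of 10.73, 8.28, 10.81, 8.15 and 9.71 in restricted progeroid livers, against 6.83, 4.36, 5.62, 4.80 and 5.84 in control progeroid livers. In wild type livers it had 11.84, 11.55, 12.04, 11.77 and 11.83 on restricted food, against 3.95, 7.16, 4.13, 4.61 and 3.92 on the control diet. Restricted and control animals did not overlap in either genotype, and every restricted progeroid liver lay below every restricted wild type liver. Among control wild type mice animal 402, at 7.16, stood apart from the other 4.

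The diet effect on Cyp2b9 was 4.04 ± 0.60 (log2 fold change ± SE, 16.5-fold) in progeroid livers, with n = 5 per group and limma adjusted p = 0.000184. In wild type livers it was 7.05 ± 0.60 (132-fold; limma adjusted p = 7.66e-08). On restricted food Cyp2b9 was 4.82-fold lower in progeroid than in wild type livers (-2.27 ± 0.60; limma adjusted p = 0.0109). The genotype difference on the control diet was 0.73 ± 0.60, with a 95% interval from -0.51 to 1.98 (limma adjusted p = 0.498). The difference between the diet effects, progeroid minus wild type, was -3.0 ± 0.84 and missed the threshold at limma adjusted p = 0.0821; it passed without control wild type animal 402 (-3.61, 0.0189) and without restricted progeroid animal 362 (-3.30, 0.0450).

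The order of Cyp2b9 group means was restricted wild type (11.81 ± 0.18, SD, n = 5), restricted progeroid (9.54 ± 1.28), control progeroid (5.49 ± 0.96) and control wild type (4.76 ± 1.37). The last 2 in that order did not differ beyond their spread. Restricted progeroid mice spanned 6.34-fold, whereas restricted wild type mice were uniform, with a range of 1.41-fold. On its array Cyp2b9 stood above 98.1 to 98.8% of probe sets in restricted wild type livers, but between 44.5 and 78.5% in control wild type livers.

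Cyp2b13, the neighbour with the near-identical upstream sequence shown above, had 3.92, 3.64, 5.72, 3.70 and 4.14 in restricted progeroid livers, against 3.52, 3.41, 3.59, 3.48 and 3.26 in control progeroid livers. The wild type values were 9.33, 6.47, 7.67, 7.51 and 9.81 on restricted food, against 3.68, 3.67, 3.52, 3.74 and 3.59 on the control diet. Restricted wild type livers were thus high, and the other 3 groups low, with animal 366 of the restricted progeroid group the highest of the low animals. The 2 progeroid groups did not overlap, although their means lay close together.

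In wild type livers Cyp2b13 rose 22.9-fold with restriction (log2 fold change 4.52 ± 0.46 SE; adjusted p = 7.99e-07). In progeroid livers the diet effect was 0.77 ± 0.46, with a 95% interval from -0.19 to 1.73 and limma adjusted p = 0.318; an exact two-sided permutation test gave p = 0.00794, the smallest that 252 assignments allow and not adjusted, where the unadjusted limma p was 0.109. The diet effects differed by -3.75 ± 0.65 (limma adjusted p = 0.00747), and the call held without each animal in turn (-4.17 to -3.33). On restricted food Cyp2b13 was 15.3-fold lower in progeroid than in wild type livers (-3.93 ± 0.46; limma adjusted p = 7.13e-06), with no overlap. The genotype difference on the control diet was -0.19 ± 0.46 (95% interval -1.15 to 0.77, limma adjusted p = 0.855). The SD was 0.12 in control progeroid and 0.08 in control wild type livers, against 0.86 and 1.38 in the restricted groups. The exact permutation p for this difference, not adjusted, was 0.0159.

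By group mean Cyp2b13 ran from restricted wild type (8.16 ± 1.38, SD, n = 5) to restricted progeroid (4.22 ± 0.86), control wild type (3.64 ± 0.08) and control progeroid livers (3.45 ± 0.12). Below the first, no neighbouring pair passed the test. Restricted progeroid against control wild type livers gave 0.58 (limma adjusted p = 0.377). Control animals stood at 23.9 to 39.8% of the probe sets of their arrays, so their levels lie in the lower part of the scale.

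Cyp2b10, the CAR target, had 4.16, 4.45, 3.88, 3.66 and 4.01 in restricted progeroid livers, against 3.63, 3.71, 3.77, 3.84 and 3.82 in control progeroid livers. Wild type livers had 8.93, 5.29, 7.12, 9.13 and 10.43 on restricted food, against 5.53, 6.52, 5.27, 7.91 and 4.09 on the control diet. The highest of the 10 progeroid livers was at 4.45, and 9 of 10 wild type livers lay above it, but control animal 405 did not. Progeroid livers stood at 36.8 to 54.0% of the probe sets of their arrays, where array medians were 4.17 to 4.21. Folds that involve these low levels can be understated. Wild type animals were spread widely, over 35.3-fold among restricted and 14.1-fold among control mice, and these groups overlapped.

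On restricted food Cyp2b10 was 17.7-fold lower in progeroid than in wild type livers (log2 fold change -4.15 ± 0.70 SE; adjusted p = 0.000304). Its control-diet genotype difference was -2.11 ± 0.70 with no overlap, but missed the threshold at limma adjusted p = 0.0568. That comparison passed without wild type animal 405 (0.0221), in a fit of those groups alone (0.0260) and with a filter on dim genes (0.0427). The exact permutation p of 0.00794 is not adjusted and stands beside an unadjusted limma p of 0.00675. Restriction gave 0.28 ± 0.70 in progeroid livers (95% interval -1.18 to 1.73, limma adjusted p = 0.856). This SE is pooled. The SD was 0.30 and 0.09 in restricted and control progeroid livers, against 2.0 and 1.43 in the wild type groups. The exact permutation p for this effect, not adjusted, was 0.0714.

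In wild type livers Cyp2b10 rose 4.98-fold with restriction (2.32 ± 0.70; limma adjusted p = 0.0209). This call was lost without control animal 405 (0.0633) or restricted animals 424 (0.0539) and 425 (0.0690), and in a fit of those groups alone (0.0904); the exact permutation p, not adjusted, was 0.0794, and the unadjusted limma p was 0.00343. The diet effects differed by -2.04 ± 0.99 (95% interval -4.10 to 0.020; limma adjusted p = 0.358). In order the group means were 8.18 ± 2.0 in restricted wild type, 5.86 ± 1.43 in control wild type, 4.03 ± 0.30 in restricted progeroid and 3.75 ± 0.09 in control progeroid livers (SD, n = 5). Neither control wild type and restricted progeroid livers (limma adjusted p = 0.0598) nor the progeroid groups differed beyond the threshold.

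The 3 probe sets of Cyp2b10 correlated at 0.989 or more over the 20 arrays and gave the same calls in a fit over all probe sets. Their genotype difference on restricted food was -4.27, -4.15 and -3.55. For genotype on the control diet the other 2 probe sets gave -2.04 and -1.80, and their genotype groups overlapped. The probe sequences were not used here, so cross-hybridisation among the Cyp2b genes was not tested.

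**Figure D1:**
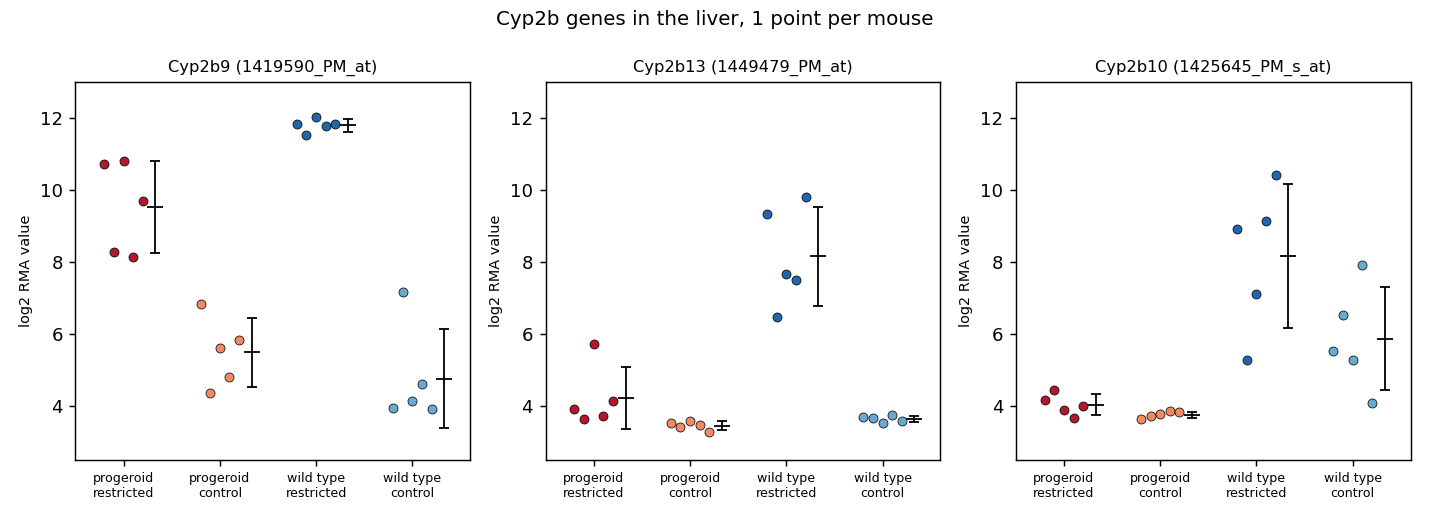
Log2 level of Cyp2b9, Cyp2b13 and Cyp2b10 in each of the 20 livers (points, 5 per group) with the group mean and SD. Restricted wild type livers lie above all others for Cyp2b9 and Cyp2b13, and Cyp2b10 stays at or below 4.45 in all 10 progeroid livers.

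Nr1i3, which encodes CAR, had 9.67, 9.61, 9.88, 9.58 and 9.74 in restricted progeroid livers, against 8.60, 8.12, 9.12, 8.86 and 8.79 in control progeroid livers. The wild type levels were 9.80, 9.74, 9.66, 9.02 and 9.67 on restricted food, against 9.21, 9.24, 8.92, 9.01 and 8.77 on the control diet. Progeroid groups did not overlap, and among wild type mice only restricted animal 424, at 9.02, fell within the control range. Nr1i3 rose 2.0-fold with restriction in progeroid livers (log2 fold change 1.0 ± 0.16 SE; adjusted p = 0.000330) and 1.46-fold in wild type livers (0.55 ± 0.16; limma adjusted p = 0.0155).

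The diet effects on Nr1i3 differed by 0.45 ± 0.22 (95% interval -0.012 to 0.92; limma adjusted p = 0.368). The genotype difference was 0.12 ± 0.16 on restricted food (95% interval -0.21 to 0.45; limma adjusted p = 0.674). Its sign turned without restricted wild type animal 424 (-0.019). On the control diet it was -0.33 ± 0.16 (95% interval -0.66 to -0.0040; limma adjusted p = 0.199). The means ran in the order restricted progeroid (9.70 ± 0.12, SD, n = 5), restricted wild type (9.58 ± 0.32), control wild type (9.03 ± 0.20) and control progeroid (8.70 ± 0.37). The restricted groups, next to each other in this order, missed the threshold, as did the control groups. Of 5 restricted progeroid livers, all low in Cyp2b10, 4 had Nr1i3 levels within the range of restricted wild type livers and animal 366 lay above it. These are RNA levels. The activity of CAR was not measured, and its part in the Cyp2b10 values was not tested.

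Nr1i2, which encodes PXR, had 8.64, 8.23, 8.24, 8.11 and 8.59 in restricted progeroid livers, against 7.94, 7.66, 7.70, 7.96 and 7.94 in control progeroid livers. Wild type livers had 8.90, 8.79, 8.57, 8.67 and 8.19 on restricted food, against 8.23, 8.44, 8.14, 8.61 and 8.08 on the control diet. Control progeroid livers were the lowest group and overlapped with none of the others. Nr1i2 rose 1.44-fold with restriction in progeroid livers (log2 fold change 0.52 ± 0.13 SE; adjusted p = 0.0130), and on the control diet it was 1.37-fold lower in progeroid than in wild type livers (-0.46 ± 0.13; adjusted p by limma = 0.0280).

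That genotype call was lost without control progeroid animals 323 (0.0736) or 325 (0.0640), or control wild type animals 402 (0.0706) or 404 (0.0852). In wild type livers the diet effect on Nr1i2 was 0.32 ± 0.13 (95% interval 0.049 to 0.60; limma adjusted p = 0.0860) and passed without control animal 404 (0.0409) or restricted animal 425 (0.0176). On restricted food the genotype difference was -0.26 ± 0.13 (95% interval -0.54 to 0.014; limma adjusted p = 0.195), and it passed without restricted wild type animal 425 (0.0497). The diet effects differed by 0.20 ± 0.19 (limma adjusted p = 0.693). The group means were 8.62 ± 0.27 in restricted wild type, 8.36 ± 0.24 in restricted progeroid, 8.30 ± 0.22 in control wild type and 7.84 ± 0.15 in control progeroid livers (SD, n = 5), and of neighbours in this order only the last pair passed. The second probe set gave the same calls in the fit over all probe sets, but with other sizes. Its diet effect was 0.66 in progeroid and 0.16 in wild type livers, with a difference of 0.50. Its genotype difference was -0.61 on the control diet and -0.11 on restricted food.

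**Figure D2:**
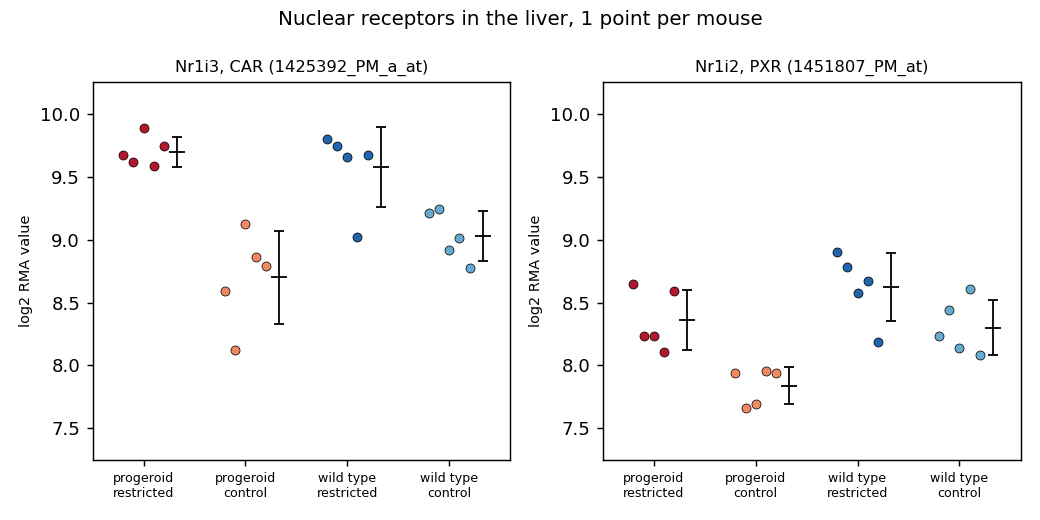
Log2 level of Nr1i3 (CAR) and Nr1i2 (PXR) in each of the 20 livers (points, 5 per group) with the group mean and SD. Restricted progeroid livers lie above control progeroid livers without overlap for both receptors.

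In counts, 3 of 5 genes rose and 0 fell with restriction in progeroid livers, where 6.94% of all genes rose and 5.07% fell. In wild type livers 4 of 5 rose and 0 fell, where 9.92% of all genes rose and 12.6% fell. With genotype on restricted food 3 of 5 were lower and 0 higher in progeroid livers, against 5.44% and 11.8% of all genes. For genotype on the control diet 1 of 5 was lower and 0 higher, against 4.32% and 6.70% of all genes. The difference of the diet effects was called lower for 1 of 5 and higher for 0, against 0.374% and 1.03% of all genes. Groups did not overlap for 4 of 5 genes in the diet effect in progeroid livers, all higher, against 5.19% of genes, and for 2 of 5 in wild type livers, against 6.90%. For the genotype effect they did not overlap for 3 of 5 on restricted food, all lower, against 3.94%, and for 2 of 5 on the control diet, against 3.95%. The comparisons share arrays, since each group enters several of them.

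**Figure D3:**
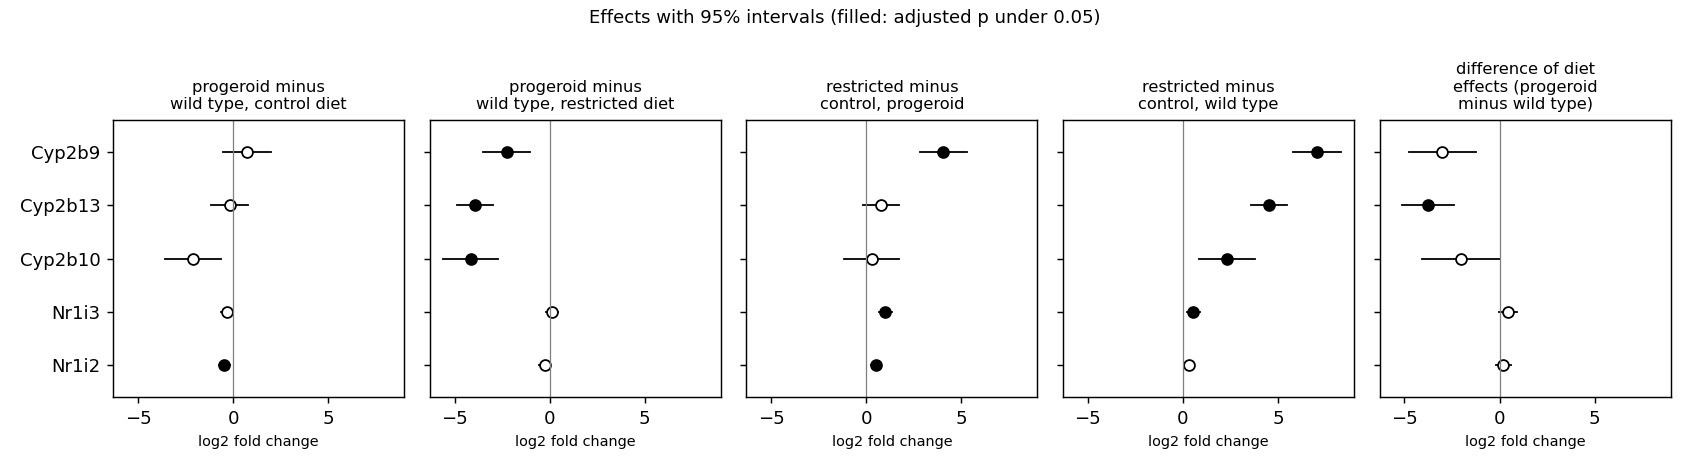
Log2 fold change of each gene with its 95% interval (limma, n = 5 per group) for the genotype and diet effects and for the difference of the diet effects. The intervals of Cyp2b9, Cyp2b10 and Cyp2b13 lie below 0 for the genotype effect on restricted food.

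Within groups the genes did not vary as one unit. Deviations from the group means correlated at 0.58 between Cyp2b10 and Cyp2b13 over the 20 arrays. They gave -0.30 over the 10 progeroid arrays, where Cyp2b10 was low (SD 0.30 and 0.09). Over the 10 wild type arrays they gave 0.72. Between Cyp2b9 and Cyp2b13 the correlation was 0.26 over the 20 arrays, with 0.55 over the progeroid and 0.070 over the wild type arrays. Nr1i3 and Cyp2b10 gave -0.021. These are descriptions, and the points share arrays and their normalisation.

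Correlations with each gene were ranked after leaving out provisional gene symbols and the genes followed here. Over all 20 arrays the genes most like Cyp2b9 were then Slco1a4, an organic anion transporter (r = 0.951), Cyp39a1, an oxysterol hydroxylase (0.950), and Ildr2 (0.945). The lowest r was that of Cyp4a12a, a male-biased fatty acid hydroxylase (-0.967). For Cyp2b13 they were Slc22a26 (0.955), Slc2a4, the glucose transporter GLUT4 (0.940), and Orm3 (0.937), with complement component C6 lowest (-0.919). Cyp2b10 was followed less closely, by Snrk (0.861), Tmem163 (0.860) and Eci3 (0.853), and Ift81 had the lowest r (-0.912). The genes most like Nr1i3 by r were Fam76a (0.919), Nfx1 (0.918) and Kxd1 (0.909), with the vesicle protein gene Sec22b lowest (-0.917). Nr1i2 had Map3k5, a stress-activated kinase (0.876), Ube2e2 (0.866) and Cab39l (0.857), with Adamts5, a matrix protease, lowest (-0.882). The r of each pair includes the differences between the 4 groups.

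Some other target genes of CAR and PXR rose with restriction. Of 32 measured targets 15 rose, 2 fell and 15 were not called in progeroid livers (median log2 fold change 0.33), where 6.94% of all genes rose (median -0.014). Among the same targets 15 rose, 4 fell and 13 were not called in wild type livers (median 0.21), where 9.92% of all genes rose (median -0.030). Slco1a4 rose by 1.98 ± 0.21 in progeroid livers (log2 ± SE; adjusted p = 6.43e-06) and by 2.51 ± 0.21 in wild type livers (limma adjusted p = 7.31e-08). Cbr1, a carbonyl reductase, rose by 1.11 and 1.37 in progeroid and wild type livers. Cyp1a2, which also counts among the pericentral markers, fell by 0.97 in progeroid livers and fell by 1.48 in wild type livers.

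For the genotype effect on restricted food 9 targets were higher and 5 lower in progeroid livers (median 0.18, all genes -0.0026). Of all genes 11.8% were higher and 5.44% lower, and Cyp2b9, Cyp2b10 and Cyp2b13 were all lower. Targets that were higher included Gstm3, a glutathione transferase (1.08), and Ces1g, a carboxylesterase (0.84). On the control diet 5 targets were higher and 3 lower (median 0.097, all genes -0.014), with Cyp3a13 at 0.74 and Cyp2c29 at -1.36. There 6.70% of all genes were higher and 4.32% lower. The diet effects differed for 2 of 32, Cyp2c55 (1.63, limma adjusted p = 0.0245) and Cyp2c29 (0.88, limma adjusted p = 0.0260), both with the more positive effect in progeroid livers. The Cyp2b13 difference ran the other way. The diet effects differed upward for 1.03% and downward for 0.374% of all genes.

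Among 20 partners and coregulators of the receptors 0 rose and 1 fell with restriction in progeroid livers, and 3 rose and 2 fell in wild type livers. Of all genes 6.94% rose and 5.07% fell in progeroid livers, and 9.92% rose and 12.6% fell in wild type livers. Egfr, whose signalling holds CAR in the cytoplasm, fell by 1.20 in progeroid livers and fell by 1.86 in wild type livers on the log2 scale. Progeroid livers had 1 higher and 6 lower on restricted food, against 11.8% and 5.44% of all genes. Those lower included the coactivators Ncoa3 (-0.48) and Ncoa2 (-0.36). On the control diet 1 was higher and 4 lower, against 6.70% and 4.32% of all genes. Those lower included Hnf4a, a hepatocyte transcription factor (-0.37). Foxa2, a forkhead factor, was the 1 gene with a called difference of diet effects (-1.03, limma adjusted p = 0.0404). This difference was called lower for 0.374% and higher for 1.03% of all genes.

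Of 15 genes of electron transfer and haem synthesis 0 rose and 1 fell with restriction in progeroid livers, and 0 rose and 2 fell in wild type livers. The shares that fell, 6.67% and 13.3%, lay near the 5.07% and 12.6% of all genes. Uros, an enzyme of haem synthesis, fell by 0.65 in progeroid livers and fell by 0.78 in wild type livers. Cyb5b, a cytochrome b5, was lower in progeroid livers by -0.61 on restricted food and -0.40 on the control diet. In all, 0 were higher and 2 lower on restricted food, against 11.8% and 5.44% of all genes. On the control diet 1 was higher and 1 lower, against 6.70% and 4.32% of all genes. The difference of the diet effects was called for 0 of 15 by limma, with the lowest adjusted p at 0.151 for Cpox.

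Among 5 measured neighbours in the Cyp2 cluster of chromosome 7, Cyp2g1 and Cyp2a5 rose with restriction in both genotypes. Cyp2g1 rose by 1.80 in progeroid and by 1.27 in wild type livers, and Cyp2a5, a coumarin hydroxylase, by 1.16 and 1.07. Cyp2f2, a periportal P450, fell by 1.0 in wild type livers, and its diet effects differed by 0.73 (limma adjusted p = 0.0231). On restricted food 3 neighbours were higher and 0 lower in progeroid livers, against 11.8% and 5.44% of all genes. Cyp2b9, Cyp2b10 and Cyp2b13 were lower there. Cyp2b19, a further Cyp2b gene, was counted among the neighbours. It averaged 2.93 to 3.03 in the 4 groups, in the lower part of the scale, and was not called in this comparison.

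Most measured sex-biased liver genes were called for diet in both genotypes. Cyp2b9 and Cyp2b13 are not in these lists. With restriction 6.94% of all genes rose and 5.07% fell in progeroid livers, and 9.92% and 12.6% in wild type livers. Of 13 female-biased genes 10 rose and 0 fell in each genotype, with a median log2 fold change of 1.55 in progeroid and 2.91 in wild type livers. Of 14 male-biased genes 13 fell and 0 rose in progeroid livers, and 12 fell and 0 rose in wild type livers (medians -1.47 and -2.20). The thioesterase Acot3 rose by 4.77 and 4.20 in progeroid and wild type livers, and the elongase Elovl3 fell by 4.74 in progeroid livers and fell by 6.92 in wild type livers. The mean level of the female-biased list was 5.75 to 7.43 in restricted progeroid livers and 4.50 to 5.00 in control progeroid livers, against 7.14 to 7.98 in restricted wild type and 4.78 to 4.97 in control wild type livers.

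On restricted food 2 female-biased genes were higher and 4 lower in progeroid livers (median -0.73), and 8 male-biased genes were higher and 1 lower (median 0.68). Of all genes 11.8% were higher and 5.44% lower. Cyp17a1, a steroid hydroxylase, was at -3.71 and Slc22a26, the gene with the highest r to Cyp2b13, at -2.44. On the control diet 0 female-biased genes were higher and 2 lower, and 1 male-biased gene was higher and 2 lower. There 6.70% of all genes were higher and 4.32% lower. The diet effects differed downward for 2 of 13 female-biased genes, Cyp17a1 (-3.15, limma adjusted p = 0.0275) and Slc22a26 (-2.38, limma adjusted p = 0.0269). They differed for 5 of 14 male-biased genes, 4 upward and 1 downward, with Cyp4a12a at 3.80 (limma adjusted p = 0.00192) and C6 at 1.97 (0.0135). The shares of all genes with such a difference were 1.03% upward and 0.374% downward.

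**Figure D4:**
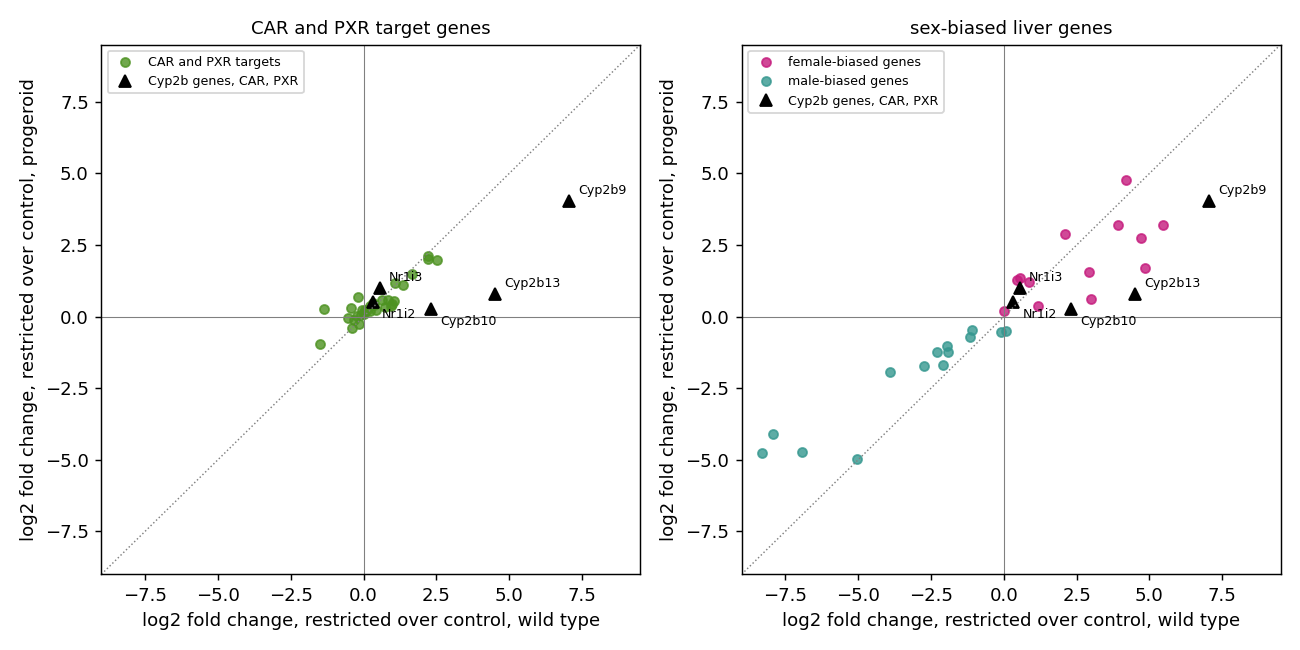
Diet effect in progeroid livers (vertical axis, log2 fold change) against the diet effect in wild type livers (horizontal axis) for the 5 genes and for the target, female-biased and male-biased lists, with the line of equal effects. Cyp2b9 and Cyp2b13 lie below the line, at 4.04 against 7.05 and at 0.77 against 4.52.

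Clock genes and markers of position in the liver lobule were counted in the same comparisons. With restriction 6.94% of all genes rose and 5.07% fell in progeroid livers, and 9.92% and 12.6% in wild type livers. Of 14 clock and PAR bZIP genes 9 rose and 4 fell with restriction in progeroid livers, and 9 rose and 2 fell in wild type livers; 0 rose and 1 fell with genotype on each diet. Cry2, a clock repressor, rose by 0.92 and 0.93 in progeroid and wild type livers. Of 9 pericentral markers 0 rose and 1 fell with restriction in progeroid livers and 1 rose and 1 fell in wild type livers. Of 8 periportal markers 2 rose and 0 fell in progeroid and 5 rose and 1 fell in wild type livers.

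With genotype on restricted food 1 pericentral marker was higher and 1 lower, and 1 periportal marker was higher and 0 lower. Of all genes 11.8% were higher and 5.44% lower on restricted food, and 6.70% and 4.32% on the control diet. On the control diet 2 pericentral markers were higher and 1 lower, and 0 of 8 periportal markers were called by limma, with the lowest adjusted p at 0.0706 for Cyp2f2. The part of clock phase or zonation in the Cyp2b values was not tested.

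Kupffer cell markers were higher in progeroid livers for 7 of 8 genes on restricted food, against 11.8% of all genes. On the control diet they were higher for 2 of 8, against 6.70% of all genes, and 0 were lower on either diet. Their mean level was 8.35 to 9.12 in restricted progeroid and 8.25 to 8.93 in control progeroid livers, against 7.59 to 8.20 in restricted wild type and 7.99 to 8.41 in control wild type livers. Clec4f, which defines Kupffer cells, was higher by 0.89 on restricted food. With restriction 1 of 8 rose and 0 fell in progeroid livers, where 6.94% of all genes rose. In wild type livers 0 rose and 3 fell, where 12.6% of all genes fell.

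Leukocyte markers were higher in progeroid livers for 3 of 5 on each diet. With restriction 0 of 5 were called in progeroid livers and 1 fell in wild type livers. Of all genes 11.8% were higher in progeroid livers on restricted food and 6.70% on the control diet. In wild type livers 12.6% of all genes fell with restriction. On restricted food 1 of 6 endothelial and 1 of 6 stellate markers were higher, with 0 lower. With genotype on the control diet 1 endothelial marker was lower and 2 stellate markers were higher. With restriction 1 endothelial marker fell, and 1 stellate marker rose and 1 fell, in wild type livers, and 0 of either were called in progeroid livers. Of 4 cholangiocyte markers 0 were called in any comparison. The part of these cell types in the Cyp2b values was not tested.

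The Gapdh difference between 3' and 5' probe sets, a sign of RNA quality, averaged 0.81 ± 0.24 in restricted progeroid and 0.93 ± 0.28 in control progeroid livers, against 0.76 ± 0.12 in restricted wild type and 0.66 ± 0.06 in control wild type livers (log2, SD, n = 5). Its part in the results was not tested.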

How the data were processed

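Total RNA from 20 livers was measured on Affymetrix mouse arrays, 1 per animal, with 5 animals per group. The groups come from the title of each sample. The deposited values are log2 levels. The authors made them with RMA (per the submitters' processing notes), in a version that the sources used here do not give. This method sets all arrays to the same distribution, so an overall shift between groups would be removed. The table holds 45141 probe sets, of which 104 controls were left out. Array medians were 4.17 to 4.21, the values ran from 2.19 to 14.51, and arrays correlated at 0.979 to 0.997, with 0 identical pairs. The number of arrays limits the precision.

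Gene symbols of probe sets are those of the platform annotation; 28898 had 1 symbol, 551 had several and were not used for a gene, and 28689 of the 28898 were found in RefSeq (GRCm38.p6) by Entrez ID. Each of 17097 genes was represented by its probe set with the highest mean. With limma 3.58.1 (lmFit, eBayes; R 4.3.3) the 4 group means were estimated together from all 20 arrays, without a filter on dim probe sets, and contrasts were tested two-sided. Errors are SE for fold changes and SD for levels. Exact permutation tests of single genes used 252 assignments and are not adjusted. The fit was tested on simulated data. Alternatives covered the scaling, the choice of probe set, a dim filter, array weights, trend and robust variances, a fit of only the groups compared, all probe sets, and leaving out each animal; the permutation test was added after seeing the data. Promoter windows came from RefSeq.

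The genes, the 15 gene lists and the tests were chosen with earlier results of these data known. Genes named are all those followed here, and the 2 genes of lowest adjusted p in every list and comparison. The 3 most and 1 least correlated genes of each gene followed here are also named, without provisional symbols and without the genes followed here. Ercc1 is named as a check of the labels. Eif2s3y, Xist, Gapdh and Cyp2b19 were named outside these rules. Of these, the text prints a selection made after their values were seen, with values of some genes added for further comparisons.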

Additional observations from a re-analysis of the deposited data

Results flagged for a closer look

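In 3 of the 32 groups of 5 tested, 1 animal stood apart by Dixon's ratio (the gap to the nearest animal over the group's range), with a critical value of 0.71; chance flags about 1 in 20 groups. Cyp2b9 was 7.16 in control wild type animal 402, with the nearest animal at 4.61 (ratio 0.786). Cyp2b13 was 5.72 in restricted progeroid animal 366, with the nearest at 4.14 (ratio 0.763). Nr1i3 was 9.02 in restricted wild type animal 424, with the nearest at 9.66 (ratio 0.823).

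The diet effect on Cyp2b13 differed between the genotypes by the test of the difference itself, at -3.75 on the log2 scale (progeroid minus wild type; limma adjusted p = 0.00747). All 5 restricted animals lay above all 5 control animals in each genotype.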

How the results depend on the processing

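Each of 25 results on the 5 genes was recomputed under the alternatives. Of 490 values with an adjusted p, 473 kept their direction and their side of the threshold, 8 newly passed, 8 no longer passed and 1 changed sign; 20 exact permutation p-values are not adjusted and do not bear on the calls. For Cyp2b10 the genotype effect on the control diet (-2.11) passed with the dim filter (adjusted p = 0.0427) and in a fit of the compared groups alone (0.0260), and ranged from -2.55 to -1.60 without single animals. The Cyp2b10 diet effect in wild type livers (2.32) missed in a fit of the compared groups alone (0.0904), and ranged from 1.75 to 3.04. The exact permutation p of these 2 Cyp2b10 results was 0.00794 and 0.0794. It was 0.0159 for Cyp2b13 and genotype on the control diet (-0.19) and 0.00794 for its diet effect in progeroid livers (0.77). Without single animals the Nr1i2 genotype effect ranged from -0.51 to -0.38 on the control diet and from -0.37 to -0.19 on restricted food, and its diet effect in wild type livers from 0.26 to 0.43. The Nr1i3 genotype effect on restricted food ranged from -0.019 to 0.17, and the Cyp2b9 difference of diet effects from -3.61 to -2.66. Without suffixed probe sets Nr1i3 had no value. The causes were not tested.

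Counting all probe sets in place of genes, a fit over 45037 features against 17097, gave larger counts. For genotype on the control diet 1793 were higher and 1334 lower (genes: 1145 and 738), and on restricted food 3182 and 1992 (2018 and 930). For diet in progeroid livers the counts were 2165 and 1550 (1186 and 867), and in wild type livers 4449 and 4095 (1696 and 2146). The difference had 122 lower (64). As a share of the features tested, each of these probe set counts was lower than the gene count. Array weights gave 110 lower for the difference. Without single animals the difference had 77 to 364 genes higher (176 in all arrays) and 26 to 126 lower, and diet in progeroid livers 561 to 920 lower, with 561 without control animal 323.

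No paired analysis was possible because the groups share no animal numbers.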
